A study of Mus musculus with 8 samples.

Results

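Yap1, Wwtr1 (which encodes TAZ), Tead1 to Tead4, Vgll3 and Vgll4 encode the co-activators, the DNA-binding factors and the Vestigial-like cofactors through which the Hippo pathway acts on transcription. They were taken by gene name from a table of gene levels in mouse embryonic fibroblasts (MEFs), where each of the 8 names stood on 1 row among 48527 genes. MEFs are fibroblasts cultured from mouse embryos. The cells received lentivirus that encoded either a control empty vector (EV) or wild-type YAP fused to a fluorescent protein. They were grown with 1 µg/mL doxycycline and sorted on the fluorescent reporter. The control groups were EV with GFP (replicates 1 and 2) and EV with mCherry (replicates 3 and 4), and the YAP groups were YAP fused to GFP (replicates 1 and 2) and YAP fused to mCherry (replicates 3 and 4). Each vector therefore had 4 libraries, with 2 per reporter. The mouse strain, the age of the embryos, the species and sequence of the YAP insert and the origin of the replicates are not given in the labels, and each p-value therefore reflects library-to-library spread alone, which may be technical.

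YAP and TAZ have no DNA-binding domain of their own and reach chromatin mainly by binding TEAD proteins. When the LATS kinases of the Hippo pathway phosphorylate YAP and TAZ, the co-activators are held in the cytoplasm or degraded. Vestigial-like proteins bind the same TEAD factors, and VGLL4 competes with YAP for them and represses their targets. Fibroblasts are a common setting for the pathway, because YAP and TAZ respond to stiffness, spreading and contact of adherent cells.

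Expression was measured by sequencing polyadenylated RNA and is given as FPKM, fragments per kilobase of transcript length, scaled to the number of mapped fragments, which allows levels of different genes to be compared per length. FPKM sums ran from 733152 to 1018404 per library, and 1 gene model, Gm3788, made up 13.5 to 29.1% of each sum. Over genes above 0 in all 8 libraries, the median ratio of a library to the geometric mean of the 8 ran from 0.9906 to 1.012. The low values placed the depth of the other 7 libraries at 0.559 to 1.11 of that of EV replicate 1. All 14 fibroblast markers in a list were measured above a mean of 1 FPKM, with summed levels of 10190 to 10920 FPKM in EV and 10270 to 11760 FPKM in YAP libraries. Of these 14, 3 fell in the YAP libraries by the limma test described below (Lum, Pdgfra and Postn, with log2 differences of -1.31, -0.55 and -0.54) and 0 rose. That test called 0.821% of all tested genes lower and 0.934% higher. Among 17 macrophage markers the summed level was 314.4 to 448 FPKM in EV and 182.2 to 399.4 FPKM in YAP libraries, 2 of the 15 tested markers fell in the YAP libraries and 0 of the 17 were at 0 in every library. Epcam and Krt5 (epithelium), Tie1 (endothelium) and Myod1, Myog and Myf5 (skeletal muscle) were listed at 0 in all 8 libraries. Other markers of these lists were measured. Of 3 tested epithelial markers Krt7 rose from 0.956 ± 0.341 to 6.94 ± 3.31 FPKM (SD, n = 4 each). Krt19 stood at 11.2 ± 4.36 and 22.5 ± 8.45 FPKM without passing. The 1 tested endothelial marker, Erg, fell from 17.3 ± 1.57 to 10.3 ± 0.874 FPKM (SD, n = 4 each). The 1 tested skeletal muscle marker, Des, stood at 4.05 ± 1.33 FPKM in EV and 3.39 ± 0.373 FPKM in YAP libraries without passing. Of 4 tested adipocyte markers and 4 tested cartilage and bone markers, 0 passed. Summed levels in EV libraries were 15.87 to 24.75 FPKM (adipocyte) and 21.52 to 25.5 FPKM (cartilage and bone). In YAP libraries they were 20.01 to 24.57 and 16.49 to 25.44 FPKM. The part of these markers in the values of the 8 genes was not tested.

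The first 300 bases around a gene's start are shown here because TEAD factors bind a known short motif, which can be read in them. RefSeq promoters (GRCm38.p6, from 250 bases before to 50 bases after the annotated start) were held for 6 of the 8 genes, and those of Tead1 and Tead4 are not printed. The 6-base TEAD motif GGAATG, which reads CATTCC on the other strand, was searched on both strands and is in capitals below. It was found for 5 of the 6 genes in at least 1 window (7 of 9 windows, some of which overlap), while 14.7% of all 32851 promoter windows and 16.6% of 27025 genes held it. Letters in capitals are matches, not known binding sites, and no binding was measured. Each sequence is written 5′ to 3′ on the gene's own strand.
Yap1, chr9:8004547-8004846, minus strand: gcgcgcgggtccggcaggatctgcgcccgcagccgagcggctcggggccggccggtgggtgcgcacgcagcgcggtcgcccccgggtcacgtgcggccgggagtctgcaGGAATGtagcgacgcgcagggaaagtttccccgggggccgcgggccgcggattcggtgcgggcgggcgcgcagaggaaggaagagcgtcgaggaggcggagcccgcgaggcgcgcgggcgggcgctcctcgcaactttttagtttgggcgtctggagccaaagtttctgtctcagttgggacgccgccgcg
Wwtr1, chr3:57575861-57576160, minus strand: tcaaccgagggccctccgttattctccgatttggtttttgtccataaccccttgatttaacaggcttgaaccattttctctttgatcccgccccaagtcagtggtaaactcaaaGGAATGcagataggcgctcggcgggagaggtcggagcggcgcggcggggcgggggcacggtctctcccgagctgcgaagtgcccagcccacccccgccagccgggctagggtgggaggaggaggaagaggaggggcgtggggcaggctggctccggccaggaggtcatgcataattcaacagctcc
Tead3, chr17:28350551-28350850, minus strand: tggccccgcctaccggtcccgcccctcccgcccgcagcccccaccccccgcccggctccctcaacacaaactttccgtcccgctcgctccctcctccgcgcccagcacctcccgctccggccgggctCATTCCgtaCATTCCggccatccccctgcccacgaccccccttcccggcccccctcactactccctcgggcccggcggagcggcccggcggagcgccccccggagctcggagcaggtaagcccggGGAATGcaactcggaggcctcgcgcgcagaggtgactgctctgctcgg
Vgll3, chr16:65814939-65815238, plus strand: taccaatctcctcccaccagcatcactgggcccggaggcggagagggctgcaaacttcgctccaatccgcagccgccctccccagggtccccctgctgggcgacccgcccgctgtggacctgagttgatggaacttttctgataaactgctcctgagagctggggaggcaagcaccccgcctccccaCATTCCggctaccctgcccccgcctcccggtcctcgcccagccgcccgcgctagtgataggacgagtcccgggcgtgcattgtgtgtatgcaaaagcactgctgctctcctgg
Vgll4, chr6:114969154-114969453, minus strand: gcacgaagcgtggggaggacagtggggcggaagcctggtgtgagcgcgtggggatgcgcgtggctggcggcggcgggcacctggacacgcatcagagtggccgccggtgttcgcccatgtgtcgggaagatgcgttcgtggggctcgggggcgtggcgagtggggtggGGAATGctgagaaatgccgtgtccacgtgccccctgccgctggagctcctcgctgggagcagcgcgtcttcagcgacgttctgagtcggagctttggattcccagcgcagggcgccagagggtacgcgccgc
Tead2, chr7:45215542-45215841, plus strand: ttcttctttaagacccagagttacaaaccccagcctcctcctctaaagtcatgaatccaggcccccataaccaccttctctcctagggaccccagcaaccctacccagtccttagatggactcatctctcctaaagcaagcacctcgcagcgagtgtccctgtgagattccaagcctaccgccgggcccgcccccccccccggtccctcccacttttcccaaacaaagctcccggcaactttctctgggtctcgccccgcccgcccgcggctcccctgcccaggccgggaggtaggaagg

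The window of Tead3 shown is that with the most matches, 3, and the first lies at position -123 counted from the annotated start. Other windows of Tead3 held 1 match and 0 matches. The match lies at position -63 in Vgll3, -82 in Vgll4, -136 in Wwtr1 and -141 in Yap1. The window of Tead2 held none, which says only that these letters are not in these 300 bases. The AP-1 motif TGANTCA, searched in the same way because AP-1 factors often bind beside TEAD, was in 0 of the 9 windows and in 7.81% of all windows. Matches thus stood in promoters of a gene with all YAP values above the EV values (Vgll3), of one with all below (Yap1) and of 3 whose vectors overlapped (Wwtr1, Tead3 and Vgll4).

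In control fibroblasts Yap1 was the most abundant of the 8 genes and Tead4 by far the least. Yap1 stood at 90.6 ± 2.49 FPKM (SD, n = 4 EV libraries), followed by Tead2 at 49.7 ± 5.87 FPKM, Wwtr1 at 36.7 ± 1.47 FPKM and Tead1 at 32.9 ± 0.958 FPKM. Tead3 stood at 26.3 ± 1.23 FPKM, Vgll4 at 23.3 ± 1.60 FPKM, Vgll3 at 22.9 ± 2.67 FPKM and Tead4 at 3.11 ± 1.04 FPKM. Neighbours in this order had ranges apart over the 4 EV libraries, except Tead3 and Vgll4, and Vgll4 and Vgll3, whose ranges overlapped. Among all 13276 genes with a mean of at least 1 FPKM, 91.6% had a lower EV level than Yap1 and 16.1% a lower one than Tead4. The other Vestigial-like genes, Vgll1 and Vgll2, were listed at 0 in all 8 libraries. No member was at 0 in any library.

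**Figure D1:**
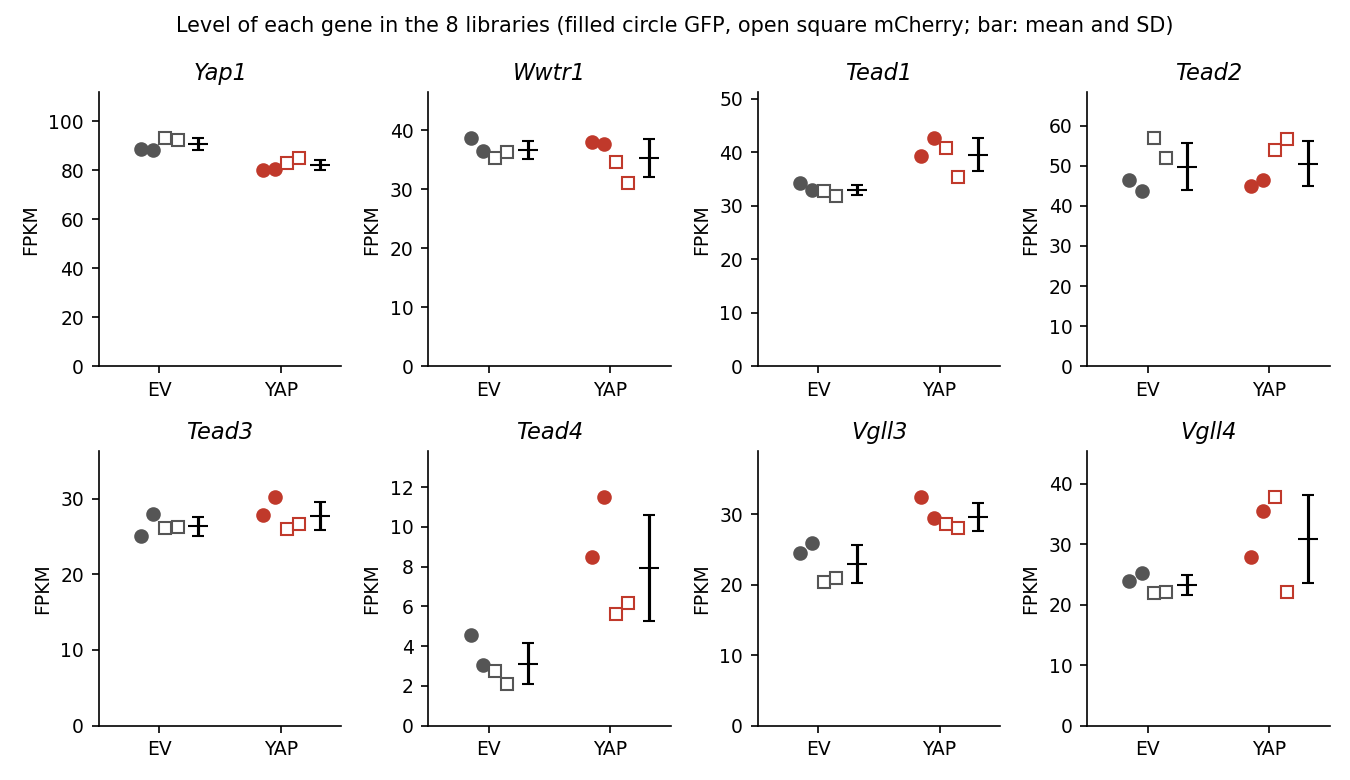
FPKM of each of the 8 genes in every library, by vector (EV or YAP), with filled circles for GFP, open squares for mCherry and bars for the mean and SD of 4 libraries. The YAP points of Tead4, Tead1 and Vgll3 all lie above the EV points, those of Yap1 all lie below, and the other 4 genes overlap.

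Across the vectors 1 of the 8 genes passed the test, Tead4, which was higher in the YAP libraries. The test was limma on log2(FPKM + 0.5) with a term for the reporter and Benjamini-Hochberg adjustment over all 13276 genes, at an adjusted p of 0.05. It called 0.934% of all genes higher and 0.821% lower. Tead1 and Vgll3 also had YAP values that all lay above the EV values, and Yap1 had YAP values that all lay below them. Of all tested genes, 4.63% had ranges apart in the upward and 4.83% in the downward direction. At an unadjusted p under 0.05, limma had 3 members above 0 (Tead1, Tead4 and Vgll3) and 1 below (Yap1), against 7.39% and 7.12% of all tested genes. The median log2 difference over the 8 genes was 0.17, beside -0.0038 over all tested genes.

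Of the co-activators, Yap1 (ENSMUSG00000053110, chromosome 9, 7931999 to 8004596, minus strand, GRCm38) was the gene named by the vector, and its level was not higher in the YAP libraries. The EV replicates 1 to 4 had 88.5, 88.4, 93.2 and 92.2 FPKM, against 80.0, 80.7, 82.9 and 84.9 FPKM in the YAP replicates 1 to 4. Every YAP library was thus below every EV library, within GFP as well as within mCherry. The difference of the means was -8.45 FPKM (exact two-sided permutation test, p = 0.0286, the lowest possible with 4 libraries per vector), and the log2 difference was -0.14 (95% interval -0.257 to -0.024, limma adjusted p = 0.259). The level therefore does not check the labels. Whether transcripts of the vector contribute to the Yap1 value was not tested.

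The 8 Yap1 values were close to each other beyond the difference between vectors. After the vector and reporter terms the residual SD of Yap1 was 0.0126 on the log2 scale, and 0 of the 13276 tested genes had a smaller one. Limma moderates such a value towards that of other genes, so that the standard error of the Yap1 difference was 0.0494. The unadjusted limma p of Yap1 (0.0242) ranked 1237 among the tested genes.

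Wwtr1 (ENSMUSG00000027803, chromosome 3, 57455649 to 57575910, minus strand), the gene of the paralog TAZ, overlapped between vectors. Its level was 38.8, 36.5, 35.3 and 36.3 FPKM in EV replicates 1 to 4 and 38.1, 37.6, 34.7 and 31.1 FPKM in YAP replicates 1 to 4. YAP replicate 4 was the lowest of the 8. The log2 difference between vectors was -0.056 (95% interval -0.215 to 0.103, limma adjusted p = 0.761). Per length, Yap1 exceeded Wwtr1 in each of the 8 libraries, by 2.47 ± 0.154 times in EV and 2.34 ± 0.287 times in YAP libraries (SD, n = 4 each), ranges that overlap. The sum of both genes was 127.3 ± 1.73 FPKM in EV and 117.5 ± 1.03 FPKM in YAP libraries and did not overlap between the vectors.

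Of the TEAD genes, which encode the DNA-binding partners, Tead4 moved most. Tead4 (ENSMUSG00000030353, chromosome 6, 128224288 to 128300823, minus strand), known in mouse embryos for its role in the trophectoderm lineage, had 4.56, 3.04, 2.77 and 2.10 FPKM in the EV replicates 1 to 4. The YAP replicates 1 to 4 had 8.47, 11.5, 5.63 and 6.15 FPKM. All YAP values were above all EV values, and YAP replicate 2 was the highest. The means of 3.11 ± 1.04 and 7.94 ± 2.68 FPKM (SD, n = 4 each) were 2.55-fold apart. The log2 difference was 1.21 (SE 0.166, 95% interval 0.824 to 1.603, limma adjusted p = 0.0203), larger in size than that of 97.6% of tested genes. The direction was the same without any 1 library, but the adjusted p then ran from 0.0502 to 0.0769, so that the call was lost whichever of the 8 libraries was left out.

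The Tead4 values also separated by reporter within each vector. Within EV the GFP libraries averaged 3.80 and the mCherry libraries 2.43 FPKM, and within YAP the averages were 9.99 and 5.89 FPKM. In both vectors each GFP library was above each mCherry library. The log2 difference of mCherry minus GFP was -0.62 (95% interval -1.009 to -0.23) but did not pass adjustment over all genes (limma adjusted p = 0.309). The vector difference on the log2 scale was 1.30 within GFP (95% interval 0.696 to 1.896) and 1.13 within mCherry libraries (95% interval 0.532 to 1.731). The difference between these values, -0.16, had an adjusted p of 0.905 (limma interaction) and a 95% interval from -1.013 to 0.684.

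Tead1 (ENSMUSG00000055320, chromosome 7, 112679318 to 112906807, plus strand), a TEAD gene known for its role in heart and muscle, was slightly higher in YAP libraries without passing the test. Its EV replicates 1 to 4 had 34.2, 32.9, 32.7 and 31.9 FPKM, and its YAP replicates 1 to 4 had 39.3, 42.7, 40.9 and 35.5 FPKM. The ranges were apart, with YAP replicate 4 nearest to the EV values. The log2 difference was 0.26 (95% interval 0.094 to 0.425, limma adjusted p = 0.156).

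Tead2 (ENSMUSG00000030796, chromosome 7, 45215753 to 45233644, plus strand), which is expressed early in mouse development, separated by reporter, while its vectors overlapped. Its level was 46.4 and 43.8 FPKM in the GFP and 56.97 and 51.8 FPKM in the mCherry libraries of EV. In the YAP libraries it was 45.0 and 46.5 FPKM with GFP and 54.0 and 56.7 FPKM with mCherry. All 4 mCherry libraries were thus above all 4 GFP libraries, and the vectors overlapped. The log2 difference of mCherry minus GFP was 0.27 (95% interval 0.126 to 0.413, limma adjusted p = 0.280), and that between vectors was 0.023 (95% interval -0.12 to 0.167, adjusted p = 0.902). Of all tested genes, 2.95% had ranges apart and higher in mCherry, and 2.15% apart and lower.

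Tead3 (ENSMUSG00000002249, chromosome 17, 28331671 to 28350817, minus strand), first known for its expression in placenta, was the steadiest TEAD gene over the libraries. It ran from 25.01 to 28.0 FPKM in EV and from 26.0 to 30.2 FPKM in YAP libraries, and these ranges overlap. The log2 difference was 0.071 (95% interval -0.094 to 0.236, limma adjusted p = 0.695). Its highest value over its lowest was 1.21, against 1.34 for Tead1, 1.30 for Tead2 and 5.49 for Tead4.

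**Figure D2:**
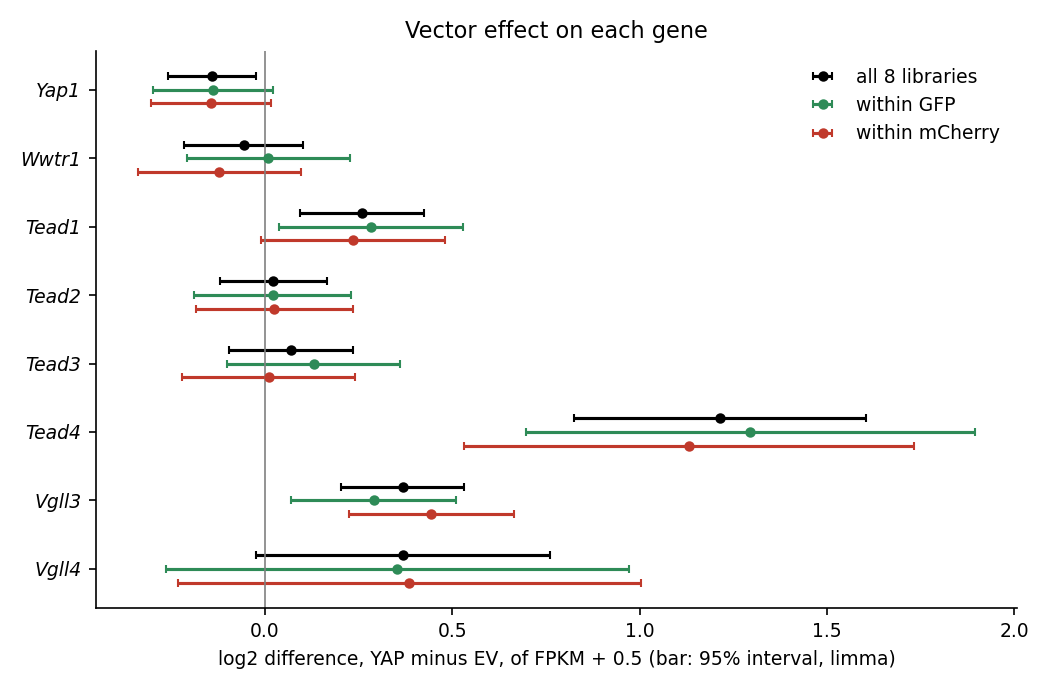
Log2 difference of YAP minus EV for each gene over all 8 libraries (black) and within GFP (green) and mCherry (red) libraries, with 95% intervals from limma. The interval of Tead4 runs from 0.824 to 1.603 over all libraries, while those of Wwtr1, Tead2, Tead3 and Vgll4 include 0.

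Added per length, the TEAD genes summed to 110.1, 107.7, 118.5 and 112.0 FPKM in EV and to 120.6, 130.9, 126.5 and 125.0 FPKM in YAP libraries. These sums do not overlap between vectors, and the means of 112.1 ± 4.64 and 125.8 ± 4.26 FPKM were 1.12-fold apart. Tead2 was the largest part in every library, with 44.3 ± 3.46% of the sum in EV and 40.2 ± 4.58% in YAP. Tead1 held 29.4 ± 1.65% and 31.5 ± 2.05%, and Tead3 23.5 ± 1.73% and 22.0 ± 1.27%, with overlapping ranges. Tead4 held 4.14, 2.82, 2.34 and 1.87% in EV replicates 1 to 4 and 7.03, 8.79, 4.45 and 4.92% in YAP replicates 1 to 4. Tead4 was thus the smallest part in all 8 libraries. Its share was higher in every YAP than in every EV library, with EV replicate 1 and YAP replicate 3 nearest to each other. The first place of Tead2 depends on the table read. In the authors' deposited table of pooled arms, Tead1 stood above Tead2 in the YAP arm, at 76.36 against 74.98 FPKM. In its control arm Tead1 stood below Tead2, at 64.62 against 75.17 FPKM.

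The ratio of Yap1 plus Wwtr1 to TEAD transcripts was lower in the YAP libraries as labelled. Whether transcripts of the vector are part of the Yap1 value was not tested, so the ratio may leave out co-activator RNA of the YAP libraries. Yap1 and Wwtr1 together over the TEAD sum gave 1.16, 1.16, 1.08 and 1.15 in EV and 0.979, 0.903, 0.929 and 0.928 in YAP replicates 1 to 4. The groups do not overlap, and the ratio was above 1 in each EV library and below 1 in each YAP library. In the authors' deposited table, where the TEAD levels are higher, the same ratio was 0.84 in the control and 0.717 in the YAP arm, so that its place above 1 in EV libraries depends on the table read. These are ratios of transcript levels, and protein was not measured here. They are given without a test, since they are built from the genes above.

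**Figure D3:**
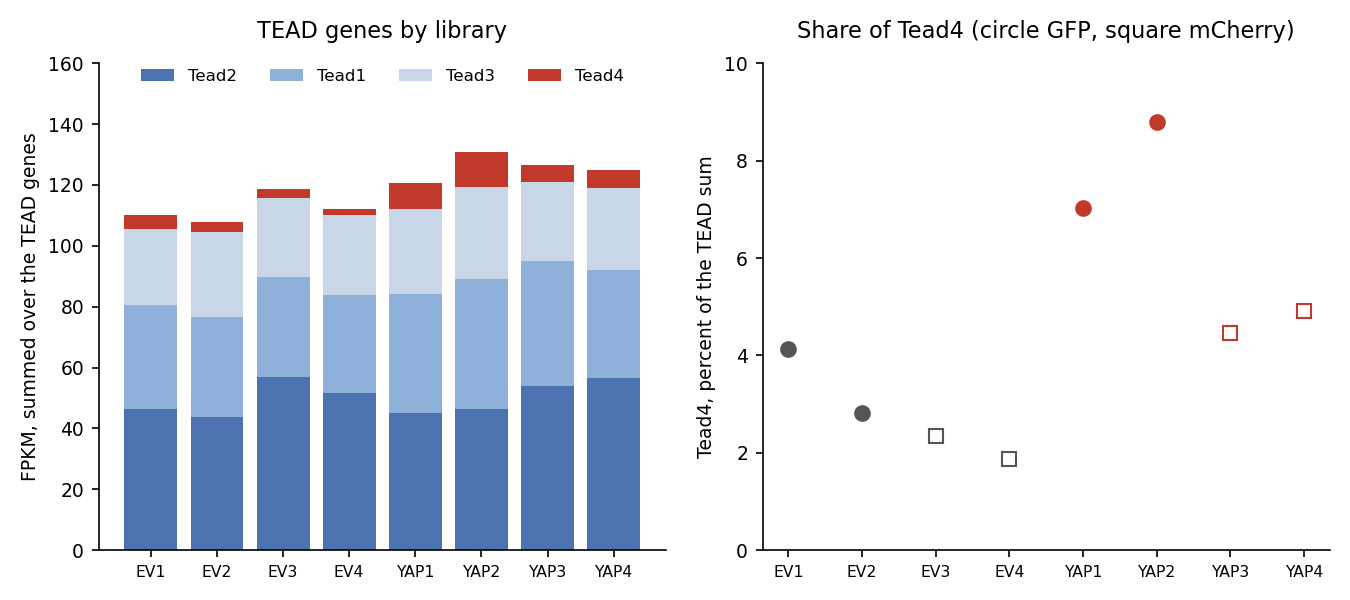
Left, FPKM of the TEAD genes stacked for each library, labelled by vector and replicate; right, the share of Tead4 in that sum, with circles for GFP and squares for mCherry. Tead2 is the largest part in each of these libraries, and the share of Tead4 runs from 1.87 to 4.14% in EV and from 4.45 to 8.79% in YAP libraries.

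Of the Vestigial-like cofactors, Vgll3 was near the threshold. Vgll3 (ENSMUSG00000091243, chromosome 16, 65815257 to 65866368, plus strand), a TEAD cofactor linked in mouse cells to muscle and fat differentiation, had 24.4, 25.9, 20.4 and 20.99 FPKM in the EV replicates 1 to 4. The YAP replicates 1 to 4 had 32.4, 29.4, 28.6 and 28.0 FPKM, all above the EV values. The means were 22.9 ± 2.67 and 29.6 ± 1.96 FPKM, 1.29-fold apart. The log2 difference was 0.37 (SE 0.0698, 95% interval 0.203 to 0.532, limma adjusted p = 0.0570), which does not pass. With quantile normalization or with median-ratio scaling of the libraries it did (adjusted p = 0.0455 and 0.0490). Over the alternatives that left out 1 library the adjusted p ran from 0.101 to 0.160. The GFP libraries were above the mCherry libraries within each vector here too, with a log2 difference of mCherry minus GFP of -0.20 (95% interval -0.364 to -0.035, adjusted p = 0.397).

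Vgll4 (ENSMUSG00000030315, chromosome 6, 114860628 to 114969994, minus strand), which competes with YAP for TEAD, had a mean difference as large as that of Vgll3 but a wider spread. Its EV replicates 1 to 4 had 23.9, 25.3, 21.9 and 22.1 FPKM, and its YAP replicates 1 to 4 had 28.0, 35.6, 37.8 and 22.04 FPKM. YAP replicate 4 was within the EV range, while the other 3 YAP libraries were above it. The log2 difference was 0.37 (95% interval -0.022 to 0.761, limma adjusted p = 0.369). It was 0.21 without YAP replicate 3 and 0.52 without YAP replicate 4, while that of Vgll3 ran from 0.34 to 0.41 with each of the 8 libraries left out in turn. The residual SD of Vgll4 was 0.267 on the log2 scale, against 0.0726 for Vgll3. Vgll3 and Vgll4 were at like levels, with a ratio of Vgll3 to Vgll4 of 0.981 ± 0.0486 in EV and 1.00 ± 0.251 in YAP libraries.

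None of the 8 genes passed for the reporter or for the interaction of reporter and vector, by limma. The test called 0.0603% of all genes higher and 0.0301% lower in mCherry libraries, and 0.0452% and 0.0226% for the interaction. Without adjustment, at the same threshold, limma placed Tead2 higher and Tead4 and Vgll3 lower in mCherry libraries, against 5.98% and 4.59% of all genes. For the interaction 0 of the 8 genes came below that threshold without adjustment, against 5.61% of genes above 0 and 4.2% below. Wwtr1 was lower in all 4 mCherry libraries (34.4 ± 2.25 FPKM) than in all 4 GFP libraries (37.7 ± 0.966 FPKM), with an adjusted p of 0.537 (limma). The ranges were barely apart, with 36.47 FPKM as the lowest GFP and 36.33 FPKM as the highest mCherry value. Of all tested genes, 2.15% had ranges apart and lower in mCherry.

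The authors' deposited table, which gives 1 value per pooled arm and a q-value from their own test, called 2 of the 8 genes. The labels do not say which libraries each arm pooled. In the authors' deposited table Tead4 rose from 3.515 to 8.924 FPKM (q = 0.000502) and Vgll3 from 25.96 to 33.63 FPKM (q = 0.00286). That table called 3.04% of 12005 tested genes higher and 2.91% lower. The authors' deposited table gave Yap1 at 107.8 and 99.96 FPKM (q = 0.721), Tead1 at 64.62 and 76.36 FPKM (q = 0.493) and Vgll4 at 31.68 and 37.65 FPKM (q = 0.197). For Wwtr1, Tead2 and Tead3 the authors' deposited table gave q = 0.756, 0.994 and 0.958.

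The levels of the members depended on which deposited table was read. The control value of the authors' deposited table was 1.96 times the mean of the 4 EV libraries for Tead1 and 1.51 times for Tead2, and 1.13 times for Wwtr1, Tead4 and Vgll3. Over 11469 genes the median of this ratio was 1.14, and 93.5% of genes lay at or below the ratio of Tead1. Tead1 was thus below Wwtr1 in every EV library but above it in the control arm of the authors' deposited table, at 64.62 against 41.32 FPKM. The ratio was nearly the same in the YAP arm, at 1.93 for Tead1 and 1.48 for Tead2, and the differences between vectors had the same sign in both tables for all members but Tead2, which differed little in either.

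**Figure D4:**
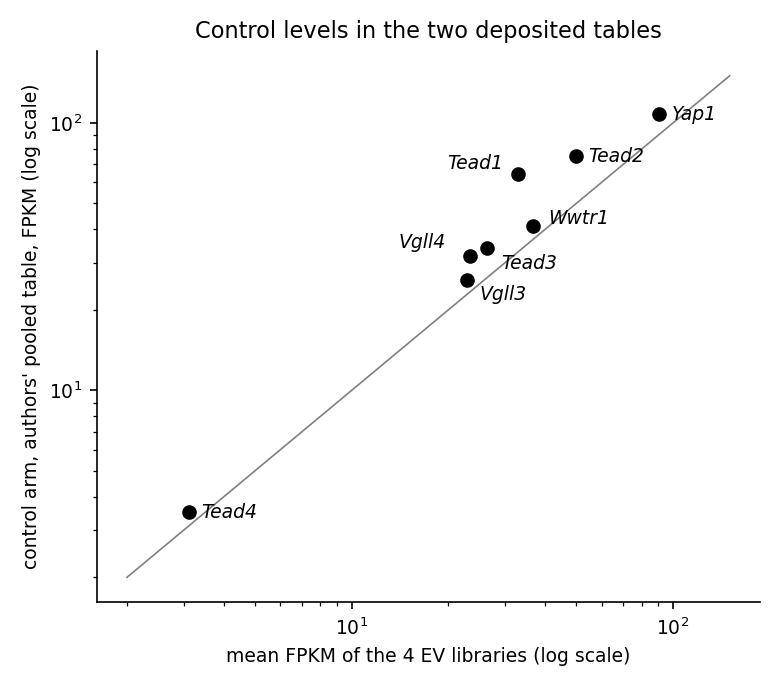
Control level of each gene in the authors' pooled table against the mean of the 4 EV libraries, both in FPKM on log scales, with a line of equal values. All 8 genes lie above the line, and Tead1 lies farthest above it, at 1.96 times.

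Shared sequence between paralogs was small. In GENCODE M21 transcripts, 10 of the 3681 distinct 50-base stretches of Tead4 also occurred in another member, Tead3, and 0 did in Yap1, Wwtr1, Tead1, Tead2, Vgll3 or Vgll4. Stretches shared with genes outside the group were 0.548% for Yap1, 0.181% for Tead1 and 0% for the other 6. Exons on the other strand overlap Yap1 (Gm20416) and Tead2 (Cd37), and both of those genes were listed at 0 in all 8 libraries.

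Of 36 tested Hippo kinases and upstream brakes, 3 rose, 0 fell and 33 did not pass (limma adjusted p under 0.05 over all genes), with a list median of 0.078 on the log2 scale, where 0.934% of all tested genes rose and 0.821% fell. Those that rose were Amotl2 and Amot, angiomotins that bind YAP, and Lats2, a kinase that phosphorylates it. Amotl2 went from 89.8 ± 16.5 to 357.6 ± 194 FPKM, Lats2 from 19.6 ± 0.835 to 30.0 ± 2.30 FPKM and Amot from 23.4 ± 3.13 to 33.9 ± 2.60 FPKM (SD, n = 4 each, adjusted p = 0.0140, 0.0170 and 0.0432). In the 2 YAP libraries with GFP, where Tead4 was highest, Amotl2 stood at 505 and 546 FPKM, and in those with mCherry at 180.04 and 200.03 FPKM. Its log2 difference of mCherry minus GFP over all 8 libraries, -0.93, did not pass (limma adjusted p = 0.28). The same difference was -0.049 for Lats2 and 0.187 for Amot, and 0 of the 36 genes passed for the reporter.

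A signature of 22 YAP and TAZ target genes had 6 members that passed upward, 1 that passed downward and 15 that did not pass, with a median of 0.25, beside the same 0.934% and 0.821% of all tested genes. Amotl2 and Lats2 stand in both lists. Cyr61 and Ctgf, secreted matricellular proteins, had log2 differences of 0.88 and 0.87 (limma adjusted p = 0.00273 and 0.0122), and Ankrd1 and Nuak2 of 1.09 and 0.99 (adjusted p = 0.0170 for both). Igfbp3, which binds insulin-like growth factors, was lower, with a log2 difference of -0.98 (limma adjusted p = 0.00183). The log2 difference of Tead4, 1.21, was larger than that of every gene of this signature but Amotl2, at 1.83. Its 95% interval, 0.824 to 1.603, included the values of Ankrd1, Nuak2, Cyr61 and Ctgf, so that the order among these genes is not settled. Whether Tead4 is itself a target of YAP was not tested.

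Of 30 tested nuclear partners, a list of AP-1, RUNX, SMAD, MEF2 and chromatin factors that act with YAP, TAZ or TEAD, 0 passed in either direction by limma. At an unadjusted p under 0.05, 1 was above 0 and 4 were below, beside 7.39% and 7.12% of all tested genes, and the list median was -0.088. The macrophage marker list, whose summed levels are given above, had a median of -0.32. By the adjusted limma test 2 of its 15 tested genes were lower, beside 0.821% of all tested genes. The part of this list in the values of the 8 genes was not tested. In bulk RNA, fewer cells that express a gene and less RNA per cell cannot be told apart.

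**Figure D5:**
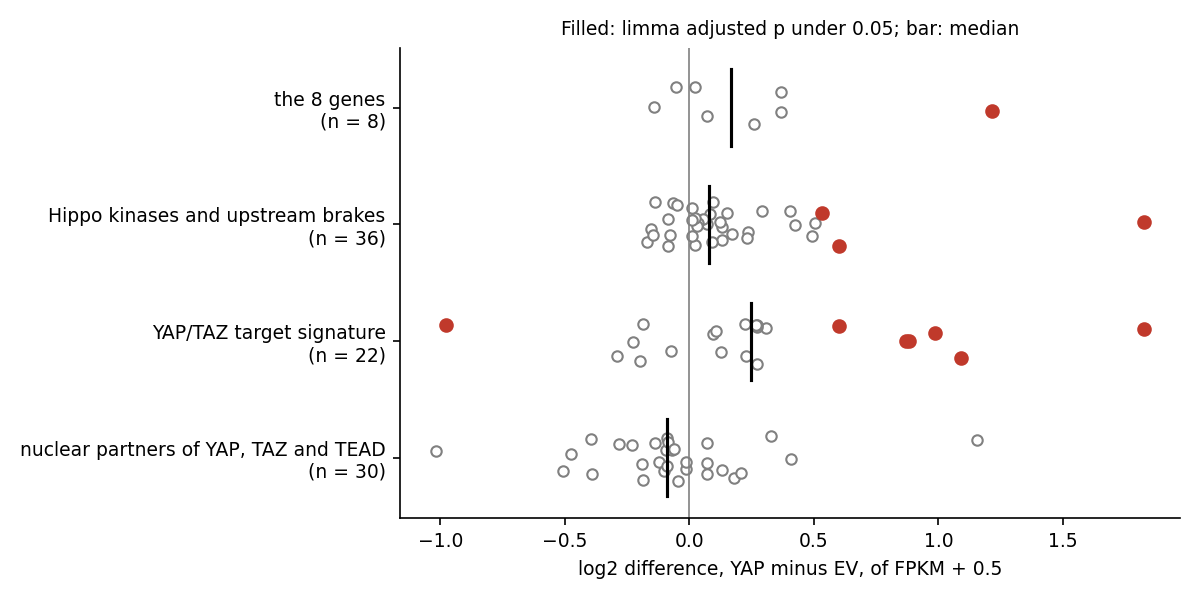
Log2 difference of YAP minus EV for the 8 genes and for the tested members of 3 pathway lists, 1 point per gene, filled where the limma adjusted p was under 0.05, with a bar at each median. Filled points are 1 of 8, 3 of 36, 7 of 22 and 0 of 30 genes.

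The genes whose log2 level over the 8 libraries was most like that of a member were found by Pearson correlation over all tested genes with a name. These are the highest of many values over 8 points that share the same libraries and the same 2 vectors. For Yap1 they were Chst2 and Hdac5 (r = 0.998 and 0.986), and for Tead4 Aif1l and Col4a5 (r = 0.980 and 0.979). For Vgll3, Ctps is given (r = 0.976). For Tead2 they were Sdhb and Clip3 (r = 0.968 and 0.960), for Wwtr1 Map3k2 and Scai (r = 0.964 and 0.962) and for Tead1 Ocrl and Plk2 (r = 0.959 and 0.953). For Tead3 they were Hars and Rabep1 (r = 0.951 and 0.937), and for Vgll4 Il1rl1 and Tm7sf2 (r = 0.967 and 0.923).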

How the data were processed

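Gene levels were read from a deposited table with 1 FPKM column per library, for which TopHat, Cufflinks and the mm10 build are named, without versions, in the submitters' processing notes. The annotation used, strand-specific counting and any rescaling of libraries are not given in the sources used here. The authors' comparison table holds an FPKM for either arm, a p-value and a q-value, per the file headers, and entered no test. A sheet of its significant genes was not used here. Of 48641 rows, 114 rows with 49 repeated identifiers were left out. The number of value columns that matched no sample was 0.

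Genes with a mean of at least 1 FPKM (13276) were tested on log2(FPKM + 0.5) with limma 3.58.1 (R 4.3.3), with a variance trend, a reporter term and Benjamini-Hochberg adjustment; fold changes on this scale understate low genes. The interaction and the effects within reporters came from a fit with 4 arm means. The fit was also run on simulated data with independent normal noise and no reporter effect, and no result here rests on that run. Fragment counts were not used here, which leaves absolute depth unknown and counting intervals out. Deviations of same-numbered EV and YAP libraries from their vector means, which include the reporter difference, correlated by -0.015 to 0.0897. Whether such libraries belong together is not given in the labels and was not settled by these values.

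Loci are 1-based, on GRCm38 (mm10), from GENCODE M21, and promoters from RefSeq (GRCm38.p6). Named genes were the 8 members, the genes past the threshold in each pathway list (at most 6 with the smallest adjusted p), both other Vestigial-like genes and, per member, the 2 tested named genes most correlated with it, of which 1 is not reported here. Members and lists were chosen with earlier results of these data known. Alternatives were other pseudocounts (0.1 and 1), no filter, 2 other scalings, no trend, no reporter term, a replicate block, each library left out and each reporter alone. Tables and plots were made with Python 3.11.15, pandas 2.3.3, numpy 2.4.6, scipy 1.17.1 and matplotlib 3.10.9.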

Additional observations from a re-analysis of the deposited data

Results flagged for a closer look

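Values of the 8 genes and 13 sums, shares and ratios built from them were checked in each vector for a library far from the other 3, in 42 groups, of which chance flags about 1 in 20. The share of Tead1 in the TEAD sum was 28.4% in YAP replicate 4, against 32.3 to 32.6% in the other 3 YAP libraries. The ratio of Yap1 plus Wwtr1 to the TEAD sum was 1.08 in EV replicate 3, against 1.15 to 1.16 in the other 3 EV libraries.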

How the results depend on the processing

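Of 144 recomputed vector differences of the 8 genes, 130 kept their side of the threshold and 0 called values changed sign. The call of Tead4 was lost without the reporter term (adjusted p = 0.0887), with the replicate block (0.142), with each library left out (0.0502 to 0.0769; log2 1.09 to 1.30) and with GFP or mCherry libraries alone (0.199 and 0.310), where fewer libraries enter. Vgll3 passed with quantile normalization (0.0455) and median-ratio scaling (0.0490). All 48 reporter and 48 interaction values of members stayed on their side. The 48 means of shares and ratios moved by less than 1 SD without 1 library. A mean of 4 values always does so when 1 is left out, so this does not show that they are stable. The numbers of genes called higher and lower, 124 and 109, were 75 and 71 without the filter on level, 80 and 70 without the reporter term, 6 and 9 with the replicate block, 6 and 10 with GFP and 5 and 4 with mCherry libraries alone, and 25 to 56 and 21 to 58 without 1 library. Without the variance trend 78 were higher. The interaction, with 6 and 3 calls, gave 11 and 12 without the filter, 1 lower with a pseudocount of 0.1 and 7 lower without the trend. The block pairs libraries by number, and the labels do not say whether these belong together. The best match of an EV library was its own number for 1 of 4. The Yap1 difference was -9.38 to -7.57 FPKM without 1 library, where 3 against 4 values cannot give an exact p below 0.0571. The cause of these changes was not tested.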
